A study of Mus musculus with 7 samples.

Results

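Elastic fibres and the lysyl oxidases that crosslink them were examined through 10 genes in muscle stem cells (satellite cells) sorted from young and geriatric mice: Eln, Lox, Loxl1, Loxl2, Loxl3, Loxl4, Fbn1, Fbn2, Fbln1 and Fbln5. Every array probe other than a control whose gene name was one of these was taken, which gave 18 probes of the 55681 on the array. The set was chosen because Eln and Lox differed in opposite directions between the age groups, so the values of the members below are a description of these samples and carry no p-value. All 10 RefSeq accessions of the members matched the same symbols in the RefSeq gene table of GRCm38.p6.

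RNA came from male C57BL/6 mice and was hybridised to 7 Agilent 1-colour arrays. Both groups were sampled in homeostasis. Young mice (3 arrays) were 2, 2 and 3 months old, and geriatric mice (4 arrays) were 28, 28, 29 and 30 months old. Cells positive for integrin α7 and CD34 were collected by flow cytometry after cells carrying CD31, CD45, CD11b or Sca1 were gated out, and their RNA was amplified by a method for small cell numbers. The descriptions of geriatric replicates 1 and 2 name a single sample, and these arrays differed by a median of 0.087 log2 units across probes, against 0.345 to 0.452 for the other pairs of arrays, so they were averaged, which left 3 samples in each age group. The titles call the samples biological replicates but do not tell single mice from pooled ones, so the SDs below measure the spread between these samples.

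Elastic fibres consist of a core of elastin laid onto microfibrils of fibrillin, with fibulins at the boundary between them. Lysyl oxidases are copper-dependent enzymes, secreted into the matrix, that oxidise lysines of elastin and collagen so that the chains become crosslinked. Satellite cells lie beneath the basal lamina of the muscle fibre and contribute matrix to their own niche.

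Signals are the background-subtracted processed signals of the arrays, in intensity units. Levels are log2 of that signal relative to the 75th percentile of the same array, which was 1330 to 1609 intensity units. A level of 0 therefore equals that percentile, and a difference is the geriatric mean minus the young mean in log2 units. Probes differ in brightness for the same amount of RNA, so values were compared between arrays and not between genes. A probe was tested if at least 3 of the 7 arrays had it well above background, which held for 17 of the 18 member probes and for all 10 genes. Of these 17, 14 were well above background on all 7 arrays. An array measures RNA per sample, so fewer cells with a transcript and less transcript per cell cannot be told apart.

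Pax7, the transcription factor that defines satellite cells, had a level of 4.09 ± 0.37 in the young group and 4.13 ± 0.22 in the geriatric group (SD, n = 3). Of the 11 satellite cell markers 6 were higher and 5 lower in geriatric cells, with a median difference of 0.04. Itga7, the integrin used in the sort, was lower by a fitted difference of -0.44 without overlap (limma adjusted p = 0.720), and the other 10 overlapped. The summed signal of these markers, to which bright probes such as Fgfr4 contribute most, was 161.4 to 187 times the 75th percentile in young samples and 167 to 181 times in geriatric samples. No gene of any marker list passed limma's test.

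Markers of other cell types differed between samples. All 9 tested markers of 11 for fibro-adipogenic progenitors, a stromal population that makes much of the muscle's matrix, were higher in geriatric cells (median 0.75), with no overlap for Dpt and Col15a1. Their summed signal was 21.5 to 29.9 times the percentile in young samples. In geriatric samples it was 48.4 times (replicate 3), 45.8 times (replicate 4) and 33.1 times (the averaged replicates 1 and 2). Dcn contributes most to that gap, with levels of 4.37 and 4.32 in replicates 3 and 4 against 1.54 to 2.56 in the other samples. The median deviation from each marker's mean was 0.65 in replicate 3, 0.49 in replicate 4 and -0.17 in the averaged sample. Ly6a, the gene of the Sca1 antigen, read 177 and 240 intensity units in geriatric replicates 3 and 4 against 15.2 to 96.2 on the other arrays. Lum read 240 and 365 there against 18.2 to 145, and both genes overlapped between the groups. Pdgfra, the defining marker of fibro-adipogenic progenitors, was not well above background on any of the 7 arrays, and neither was Tnmd, that of tenocytes. The tenocyte markers Thbs4 (1.87, limma adjusted p = 0.475) and Mkx (1.29, limma adjusted p = 0.656) were higher without overlap, while the other tested markers, Scx and Cilp2, were lower with overlap. The tenocyte sum, mostly Scx, was 3.30 to 4.10 times in young and 3.73 to 4.48 times in geriatric samples.

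Geriatric replicate 4 stood apart in several endothelial and myofibre markers. The endothelial marker Pecam1 read 732 intensity units there against 17.01 to 205 on the other arrays, Tie1 read 642 against 5.16 to 10.1, and Egfl7 read 668 against 7.97 to 202. Over the 8 tested endothelial markers, 4 higher and 4 lower between the groups, the median deviation from each marker's mean was 1.39 log2 units in that sample and -0.49 to 0.18 in the others. The brighter endothelial markers did not stand out there. Tek was at a level of 3.02 in geriatric replicate 4, within the young range of 2.70 to 3.09. Kdr read 1459 intensity units there against 1243 to 1426 on the other arrays. The endothelial sum, mostly Tek, was 7.90 to 9.75 times in young samples. It was 12.1 times in the averaged geriatric sample, 8.53 times in geriatric replicate 3 and 10.8 times in geriatric replicate 4. All 5 tested myofibre markers were higher in geriatric cells (median 0.35), each with overlap, and their sum was 6.60 times in geriatric replicate 4 against 2.84 to 3.75 in the other samples. Of the macrophage markers 4 of 6 tested were higher (median 0.22), all with overlap. Their sum, 91.7 to 101.4 times in young and 96.0 to 115 times in geriatric samples, is nearly all Itgam. Itgam is the gene of CD11b, an antigen gated out in the sort, yet its brightest probe read 132620 to 146762 intensity units across the arrays. The reason for that signal was not tested. Ptprc, the defining macrophage marker and the gene of CD45, also gated out, read 126 to 317, with a difference of 0.38. Cd68, another macrophage marker, read 15.4, 7.58, 349 and 363 in geriatric replicates 1 to 4 against 137 to 229 in young. Of 10 pericyte and smooth muscle markers 6 were higher and 4 lower (median 0.13), with no overlap for Cspg4 (0.39). The largest difference was that of Kcnj8 (-2.43), well above background on 2 young arrays and 1 geriatric array, and Rgs5 differed by -0.80, both with overlap. The sum of the list, mostly Mcam and Notch3, was 135 to 158 times in young and 139.7 to 163 times in geriatric samples. The part of these markers in the results below was not tested beyond leaving out single samples.

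Eln, which encodes tropoelastin, the soluble precursor of elastin, was lower in every geriatric array. It was read by 1 probe, at 135179129 to 135179188 on the minus strand of chromosome 5 (mm9), which starts at base 3058 of the transcript. The first 30 bases of this 60-base probe are shown because the whole Eln result rests on it.
Eln probe: ataccggaagccttgacgatggatttggtg
The Eln signal was 1228, 1137 and 1931 intensity units in young replicates 1 to 3. It was 570.3 and 525 in geriatric replicates 1 and 2, and 374 and 435 in geriatric replicates 3 and 4. The lowest young signal was thus above the highest geriatric signal, and the groups did not overlap. The young level was -0.13 ± 0.36 and the geriatric level -1.72 ± 0.33 (SD, n = 3), a difference of -1.58 (SE 0.28) or 3.00-fold. The 2 arrays of the averaged geriatric sample were 0.038 log2 units apart for Eln, a small fraction of this difference. Slide row 1 held all 3 young arrays and geriatric replicate 1, and there the difference was -1.34, with a single geriatric array.

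Lox, the founding lysyl oxidase, was higher in geriatric cells, with the groups fully apart for 1 of its 2 probes. The probes start at bases 1531 and 3524 of the transcript and lie on the minus strand of chromosome 18, at 52680465 to 52680524 and 52676912 to 52676971 (mm9). They are 1993 bases apart in the transcript and 3553 in the genome, so intronic sequence separates them. The probe at base 1531 read 119, 51.9 and 70.3 intensity units in young replicates 1 to 3. In geriatric replicates 1 to 4 it read 262, 231, 265 and 469. All geriatric arrays exceeded all young arrays, and geriatric replicate 4 stood above the others. The level was -4.33 ± 0.66 in young and -2.23 ± 0.63 in geriatric cells, a difference of 2.10 (SE 0.46) or 4.30-fold. Without geriatric replicate 4, the array with high Pecam1, Tie1 and Egfl7, the difference was 1.74. With the background modelled by normexp it was 1.40, and with the authors' deposited values it was 1.31.

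The Lox probe at base 3524 gave a smaller difference in the same direction, and its groups overlapped. Its signal was 121, 71.9 and 156 intensity units in young replicates 1 to 3 and 172, 141, 432 and 119 in geriatric replicates 1 to 4. Geriatric replicate 4, the highest array with the other probe, was the lowest geriatric array here, and geriatric replicate 3 was the highest. The difference was 0.91 (SE 0.52), and without geriatric replicate 3 it was 0.41. Over the 6 samples the 2 Lox probes correlated at r = 0.50, as a description.

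**Figure D1:**
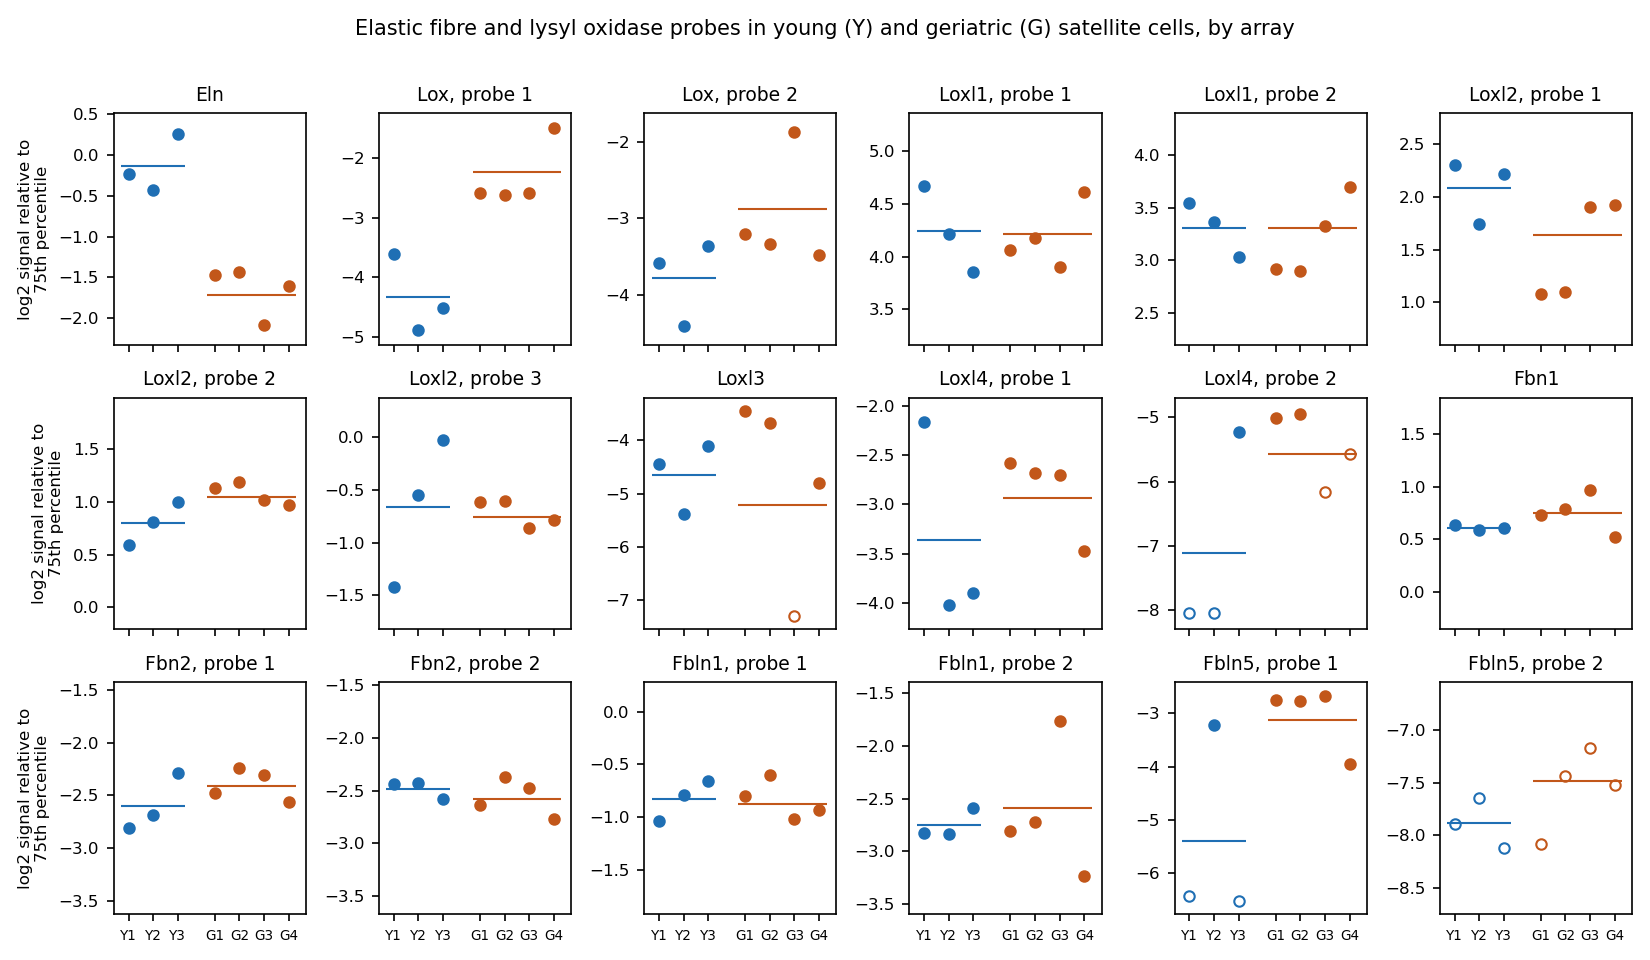
Level of each member probe on every array (log2 signal relative to the array's 75th percentile), blue for young (Y1 to Y3) and orange for geriatric (G1 to G4), with lines at the group means, where G1 and G2 count as 1 sample, and open points where the probe was not well above background. The y axes differ between panels. Probes of a gene are numbered from the brightest, so Lox probe 1 starts at base 1531. Eln and Lox probe 1 are the tested probes whose groups do not overlap.

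Of the 17 tested probes, the Eln probe and the first Lox probe, 11.8%, did not overlap between groups. Over all tested probes the groups did not overlap for 12.8%, with 6.93% higher and 5.86% lower in geriatric cells. Because Eln and Lox were chosen from this contrast, nothing is read from that count. By the brightest probe of each gene, 5 of the 10 members were higher and 5 lower in geriatric cells, with a median difference of 0.05. The median over all 27398 tested genes was -0.0024, and 49.7% of them were above 0. Without geriatric replicate 3, 8 of the 10 members were higher.

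Loxl1, the lysyl oxidase-like enzyme tied most closely to elastin, differed little between the groups with either probe. Both probes are on the minus strand of chromosome 9 (mm9), at 58145451 to 58145510 and 58138570 to 58138629, and start at bases 1553 and 2075 of the transcript. They are shown whole because they read separate stretches of the transcript and gave like differences. Each has a forward reading frame without a stop codon.
Loxl1 probe at base 1553: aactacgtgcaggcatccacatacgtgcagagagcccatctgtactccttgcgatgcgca
Loxl1 probe at base 2075: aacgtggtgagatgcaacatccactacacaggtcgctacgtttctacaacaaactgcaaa
The probe at base 1553 read 36727, 28424 and 23284 intensity units in young replicates 1 to 3, and 26389, 25714, 23693 and 32555 in geriatric replicates 1 to 4. Its level was 4.25 ± 0.41 in young and 4.21 ± 0.36 in geriatric cells, a difference of -0.03 (SE 0.30). The probe at base 2075 was at 3.31 ± 0.26 and 3.31 ± 0.40, a difference of 0.00042 (SE 0.27). With both probes young replicate 1 was the highest young array and young replicate 3 the lowest, and the spread within a group exceeded the difference between groups. The sign of these differences changed with single arrays, between -0.24 and 0.20 when 1 sample or array was left out.

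The Loxl1 probe at base 2075 and the Lox probe at base 1531 lie in related sequence. They shared 31 of 51 aligned bases (60.8%), the highest share among 144 pairs of probes of different members, and the next pair shared 51.2%. The Lox probe differed by 2.10 between the groups while this Loxl1 probe differed by 0.00042. Across the arrays the Lox probe read 51.9 to 469 intensity units and this Loxl1 probe 10550 to 17255. Whether either probe also reads the other transcript was not tested.

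Loxl2, a lysyl oxidase-like enzyme known for crosslinking collagen IV of basement membranes, was read by 3 probes that did not move together. All lie on the plus strand of chromosome 14 (mm9). The probes at bases 2212 and 2293 of the transcript (70090017 to 70090076 and 70092141 to 70092200) start only 81 bases apart in the transcript but 2124 apart in the genome, so an intron lies between them. The probe at base 4792 (70095254 to 70095313) lies towards the 3′ end and has no open forward frame, and its first 30 bases are shown. The sequences are given because the direction for Loxl2 depends on which of them is read.
Loxl2 probe at base 2212: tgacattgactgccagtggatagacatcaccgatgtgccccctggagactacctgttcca
Loxl2 probe at base 2293: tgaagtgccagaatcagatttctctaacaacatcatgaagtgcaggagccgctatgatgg
Loxl2 probe at base 4792: caccaaaggcttcgggactcctgtgtgtag
The probe at base 2212 read 7147, 5113 and 7464 intensity units in young replicates 1 to 3 and 3352, 3034, 5911 and 5038 in geriatric replicates 1 to 4. Geriatric replicates 1 and 2 were the lowest arrays, while in level geriatric replicates 3 and 4 (1.90 and 1.92) lay within the young range of 1.74 to 2.31. The difference was -0.45 (SE 0.31), -0.18 without the averaged geriatric sample and -1.01 within slide row 1, where geriatric replicate 1 is the only geriatric array.

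The other Loxl2 probes gave a difference of -0.09 (SE 0.37) at base 2293 and of 0.25 (SE 0.19) at base 4792. At base 2293 the young samples were widely spread, from -1.42 in replicate 1 to -0.03 in replicate 3, and the geriatric samples, at -0.61 to -0.86, lay inside that range. At base 4792 young replicate 3, at 1.00, lay among the geriatric samples, at 0.97 to 1.16. Over the 6 samples the probes at bases 2212 and 4792 correlated at r = -0.67 and those at bases 2293 and 4792 at 0.60. The mean of the 3 probes differed by -0.10.

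Loxl3 and Loxl4, further lysyl oxidase-like enzymes, were uneven among samples, and the Loxl3 probe and the dimmer of 2 Loxl4 probes were near background. The Loxl3 probe (plus strand of chromosome 6, 83001888 to 83001947, mm9) read 65.9, 36.6 and 92.9 intensity units in young replicates 1 to 3. It read 145, 111, 10.03 and 47.7 in geriatric replicates 1 to 4. Geriatric replicate 3, whose signal had an error of 10.1 units as the array software gives it, was the only array not well above background. The averaged geriatric sample was the highest and geriatric replicate 3 the lowest of all samples. The difference of -0.57 (SE 0.98) became 0.47 without geriatric replicate 3 and 1.20 within slide row 1.

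The brighter Loxl4 probe (minus strand of chromosome 19, 42668733 to 42668792, mm9) was well above background on all 7 arrays. It read 322, 94.0 and 107.4 intensity units in young replicates 1 to 3 and 265, 221, 244 and 119.8 in geriatric replicates 1 to 4. Young replicate 1 was the highest array and the other young arrays the lowest, so the geriatric samples lay between them. Its difference of 0.43 (SE 0.57) became 1.03 with young replicate 1 left out and 0.10 with young replicate 2 left out. The other Loxl4 probe, 1413 bases further along both the transcript and the genome, was detected above background on young replicate 3 and on the 2 geriatric arrays that were averaged. Its levels were -8.03, -8.05 and -5.23 in young samples and -4.98, -6.16 and -5.57 in geriatric samples.

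**Figure D2:**
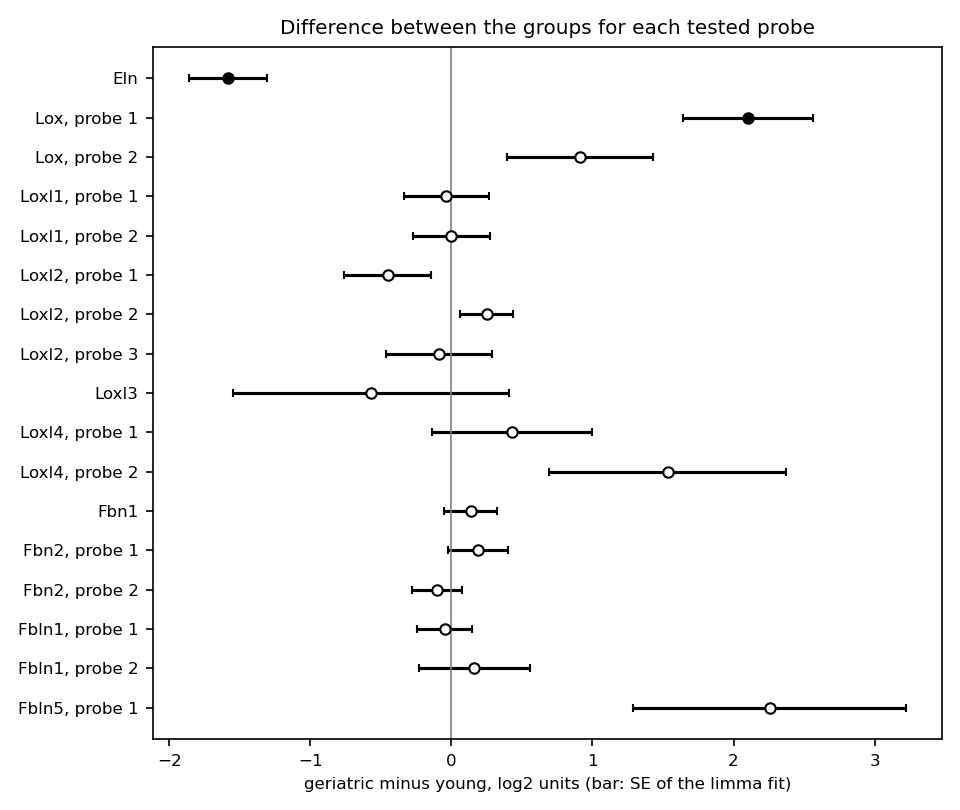
Geriatric minus young difference of each of the 17 tested member probes in log2 units, with the SE of the limma fit as the bar. Filled points are probes whose groups do not overlap. Eln lies at -1.58 and Lox probe 1 at 2.10, while the probes of Loxl1, Fbn1, Fbn2 and Fbln1 lie between -0.10 and 0.19.

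The fibrillins, which build the microfibrils, were even among samples. Fbn1 (probe on the minus strand of chromosome 2, 125126727 to 125126786, mm9) read 2251, 2301 and 2450 intensity units in young replicates 1 to 3. It read 2635, 2453, 3099 and 1907 in geriatric replicates 1 to 4. The young samples were almost identical in level (0.61 ± 0.02) and the geriatric samples lay on either side of them (0.75 ± 0.22), a difference of 0.14 (SE 0.19). Fbn2, the fibrillin of developing tissue, had probes at bases 8306 and 10257 of its transcript, on chromosome 18. Their differences had opposite signs, 0.19 (SE 0.21) and -0.10 (SE 0.18), and both groups overlapped with each probe. The pair of arrays of the averaged sample differed by 0.24 and 0.27 log2 units at these probes, so the Fbn2 differences were no larger than the gap between those arrays.

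Fbln1, a fibulin of elastic fibres and basement membranes, was likewise close between groups. Its probes, at bases 2184 and 2632 on the plus strand of chromosome 15 (85115550 to 85115609 and 85115998 to 85116057, mm9), are 448 bases apart in the transcript and in the genome alike. The first read 701, 880 and 1016 intensity units in young replicates 1 to 3 and 909, 936, 784 and 698 in geriatric replicates 1 to 4, a difference of -0.05 (SE 0.19). The second read 204, 215 and 267 in young and 226, 215, 469 and 142 in geriatric replicates. Its geriatric samples held both the highest and the lowest level (-1.76 in replicate 3 and -3.23 in replicate 4), and the difference of 0.16 (SE 0.40) became -0.25 without geriatric replicate 3. Geriatric replicate 3 was also the highest array for the Lox probe at base 3524, for Fbn1 and for Fbln5.

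Fbln5, the fibulin that tethers tropoelastin and Loxl1 to the microfibril during fibre assembly, was detected on more geriatric than young arrays. Its brighter probe lies on the minus strand of chromosome 12 (102988153 to 102988212, mm9) and starts at base 2394. Its first 30 bases are shown because it is the single Fbln5 probe with signal.
Fbln5 probe at base 2394: ttaagagtttttacccaactgtgttggaag
It read 16.9, 163 and 17.7 intensity units in young replicates 1 to 3, with errors of 7.1, 17.4 and 6.6 units. It read 235, 208, 249 and 85.6 in geriatric replicates 1 to 4. All 4 geriatric arrays and young replicate 2 were well above background, and young replicate 2 lay above geriatric replicate 4, so the groups overlapped. The probe met the filter through its geriatric arrays, where it was high, since only 1 young array counted towards it. Young replicates 1 and 3 were not well above background, so the size of the difference depends on values near background. The difference was 2.26 (SE 0.97), and it became 3.33 when young replicate 2 was left out, 1.74 when young replicate 1 was and 1.69 when young replicate 3 was. It was 0.96 with normexp and 0.85 with the authors' deposited values. The second Fbln5 probe, 3275 bases further along, was not well above background on any of the 7 arrays.

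**Figure D3:**
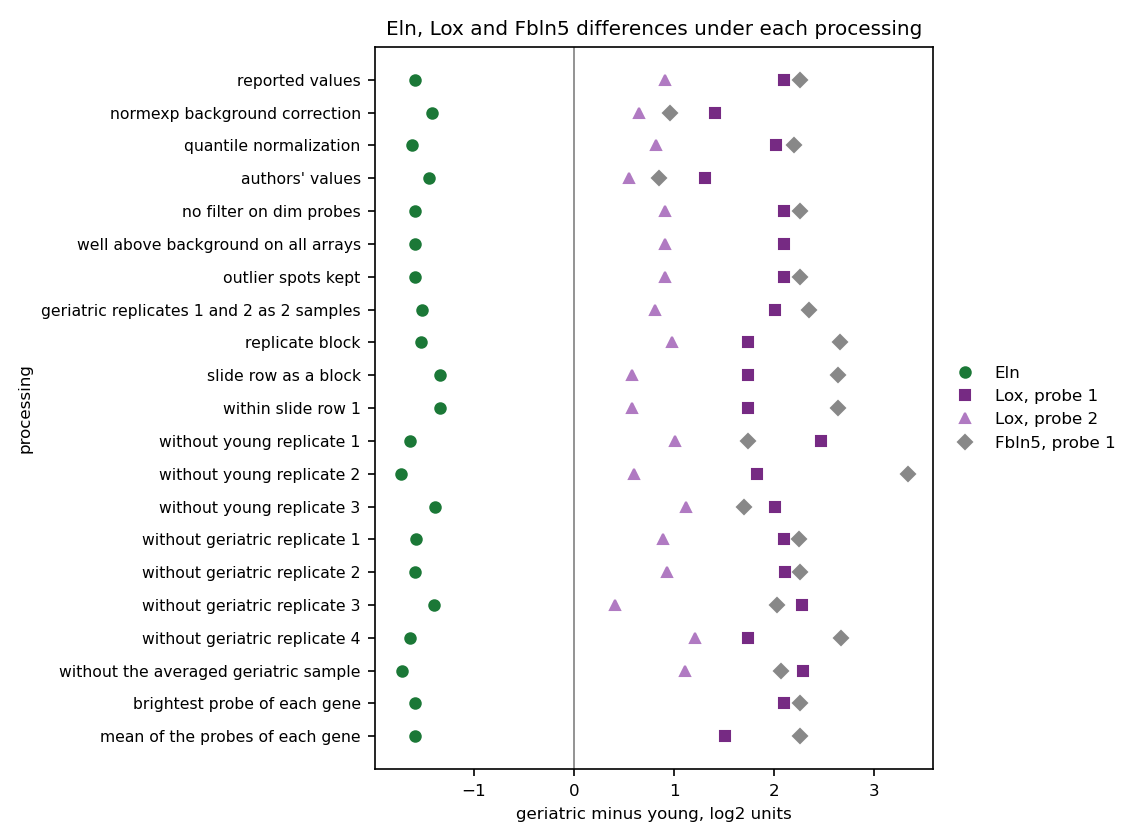
Geriatric minus young difference (log2 units) of Eln, both Lox probes and the brighter Fbln5 probe as reported and under each other way of processing the arrays or leaving samples out. Eln stays between -1.73 and -1.34 and Lox probe 1 between 1.31 and 2.47, and both genes were chosen for how they differ in these arrays. Fbln5 runs from 0.85 to 3.33 and has no point where probes had to be well above background on all arrays.

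Other genes of elastic fibre assembly, crosslinking and breakdown were followed in 5 lists chosen by role, each gene read by its brightest probe. None of the 49 tested genes of 56 passed limma's test at an adjusted p of 0.05 over all tested probes. The lowest adjusted p among them was 0.311, for Ctsk, and 7 had an unadjusted p under 0.05. Of these 7, Ctsk and Postn entered the test only through the group in which they were high. Efemp1 likewise met the filter through its 3 geriatric arrays, where it was high, since only 1 young array counted towards it. The p-values of Ctsk, Postn and Efemp1 are therefore not support for a difference. Over all tested genes read by their brightest probe 0.0182% passed, and over all 41261 tested probes 0.0145% passed (6 probes). Of all tested probes 0.00242% passed as higher (1 probe) and 0.0121% as lower (5 probes). These 6 calls fell to 0 when young replicate 1, 2 or 3 or geriatric replicate 3 or 4 was left out, with 2451 to 3210 probes at an unadjusted limma p under 0.05. Of the 49 genes, 26 were higher and 23 lower in geriatric cells, with a median difference of 0.02, and 10 (20.4%) did not overlap between groups, 6 of them higher. Over all tested genes 12.8% did not overlap, 7.18% as higher and 5.65% as lower. The 10 list genes include Ctsk and Efemp1, which met the filter through the group in which they were high. Efemp1 counts among them only with geriatric replicates 1 and 2 averaged. Nothing is therefore read from the list share beside that of all genes.

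Among the other elastic fibre genes, 15 of 19 were higher and 4 lower, with a median difference of 0.21, and 5 did not overlap between groups. Efemp1, a short fibulin, read 16.1, 24.7 and 39.7 intensity units in young replicates 1 to 3 and 44.5, 34.1, 379 and 201 in geriatric replicates 1 to 4, a difference of 2.57 (SE 0.87, limma adjusted p = 0.597). Geriatric replicates 3 and 4, which also had the highest sums of fibro-adipogenic progenitor markers, stood far above the rest, and 1 young and 3 geriatric arrays had the probe well above background. By array the Efemp1 groups overlapped, since geriatric replicate 2 (-5.38) lay below young replicate 3 (-5.34). Only the averaged sample (-5.26) lay above that young array. The probe passed the filter through its geriatric arrays, so its p is not support for a difference. Mfap5, a microfibril-associated glycoprotein, read 237, 228 and 27.8 in young replicates and 688, 575, 964 and 358 in geriatric replicates (2.45, SE 0.93, adjusted p = 0.656). Fbln7, a further fibulin, differed by 1.38 (SE 0.43, adjusted p = 0.571) with its brighter probe and by 0.36 with the other, whose groups overlapped. Fbln2, a fibulin that binds fibrillin and basement membrane proteins, differed by 0.62 (SE 0.25, adjusted p = 0.680). Mfap4, named here after its values were seen as the remaining gene without overlap, was lower (-0.23). The latent TGF-beta binding proteins of the microfibril differed by 0.38 (Ltbp1), 0.10 (Ltbp2), 0.02 (Ltbp3) and 0.34 (Ltbp4), with overlap in each.

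In the list of lysyl oxidase processing and copper supply 3 of 9 tested genes were higher and 6 lower (median -0.20). Fn1, which encodes fibronectin, a scaffold for matrix assembly that binds lysyl oxidase, was lower with no overlap. It read 1429, 1167 and 879 intensity units in young replicates 1 to 3 and 224, 174, 582 and 454 in geriatric replicates 1 to 4 (-1.55, SE 0.47, adjusted p = 0.553). Tll1, a protease of the tolloid family that can release active lysyl oxidase from its proenzyme, was higher without overlap (0.49, SE 0.23, adjusted p = 0.727). Postn, which encodes periostin, a matricellular protein that aids this processing, is named after its values were seen. It read 5.84, 7.51 and 6.82 intensity units in young replicates 1 to 3 and 101.6, 87.4, 100.4 and 6.497 in geriatric replicates 1 to 4. Geriatric replicate 4 lay among the young samples, and only the other geriatric arrays had the probe well above background. The geriatric mean was 1.58-fold higher when set against the lowest signal well above background on the young arrays. Geriatric replicate 4 kept its own value near background in that mean, so 1.58-fold is not a strict lower bound. The limma adjusted p was 0.673, for a probe tested only through its geriatric arrays. Bmp1, the main protease of that kind, differed by -0.06, and Atp7a, the pump that loads copper into secreted enzymes, by -0.20.

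Of the fibrillar collagens and lysyl hydroxylases, 2 of 8 tested genes were higher and 6 lower (median -0.08). Col1a2, a chain of type I collagen and a substrate of lysyl oxidase, read 2291, 2982 and 2195 intensity units in young replicates 1 to 3 and 7481, 6242, 7675 and 2633 in geriatric replicates 1 to 4 (1.12, SE 0.40, adjusted p = 0.620). Relative to the array's percentile geriatric replicate 4, at 0.99, lay just above the highest young sample, at 0.97. Col1a1, the other chain of type I collagen, differed by -0.01.

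Of the elastin-degrading enzymes, 2 of 6 tested genes were higher and 4 lower (median -0.18). Ctsk, which encodes the elastin- and collagen-degrading cathepsin K, stood well above background on each of the 3 young arrays but on 0 of 4 geriatric arrays, with signals of 71.2, 48.3 and 88.0 intensity units in young and 25.3, 16.5, 31.5 and 19.1 in geriatric replicates. Its young mean was at least 2.12-fold higher, set against the geriatric arrays' lowest signal well above background or the probe's own, whichever was higher (adjusted p = 0.311). The probe entered the test only through its young arrays, where it was high, so this p is not support for a difference. Among the genes of elastin receptors 4 of 7 were higher and 3 lower (median 0.01). The member without overlap was Ctsa, the protective protein of the elastin receptor complex (-0.24, adjusted p = 0.838), and its other probe gave 0.22.

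**Figure D4:**
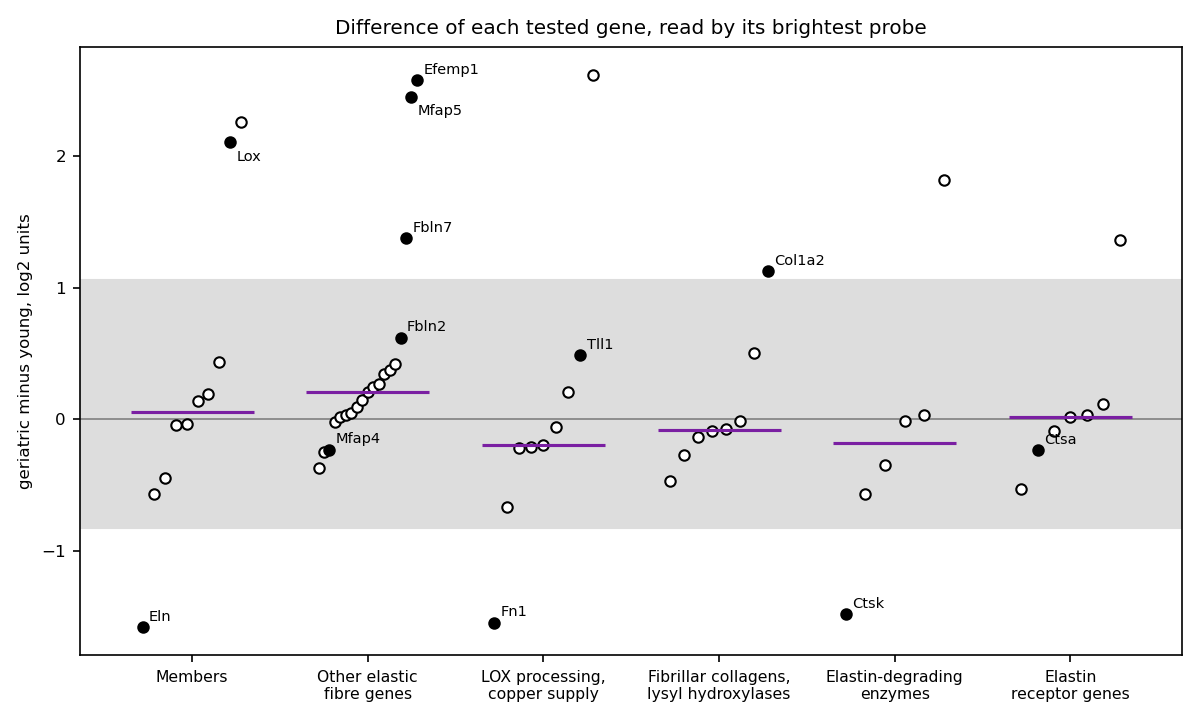
Geriatric minus young difference (log2 units) of the 10 members and of the tested genes of the 5 lists, each read by its brightest probe and sorted within its list. Filled points with names are genes whose groups do not overlap, purple lines are list medians, and the grey band spans the 5th to 95th percentile over all 27398 tested genes (-0.83 to 1.05). Eln, Fn1 and Ctsk lie below the band, and Lox, Fbln5, Efemp1, Mfap5, Fbln7, Postn, Mmp12, Lgals3 and Col1a2 above it. Eln and Lox were chosen for their differences, so their places outside the band follow from that choice. Fbln5 and Efemp1 met the filter through their geriatric arrays, where they were high. Postn and Mmp12 were well above background only on geriatric arrays. Set against the lowest signal well above background on the young arrays, their differences were 0.66, inside the band, and 1.12. Geriatric arrays without such a signal kept their own values, so these are not strict lower bounds. The averaged arrays read 35.4 and 175 intensity units for Mmp12. Ctsk was well above background only on young arrays, and its bound was -1.09.

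The genes most like Eln over the 6 samples, by Pearson correlation of the brightest probe among 14173 other named genes, were Klk1, Pde10a, Zfp229, Jmjd7 and Lmnb1 (r = 0.986 to 0.991). Lmnb1, which encodes lamin B1 of the nuclear lamina, differed by -0.76, against -1.58 for Eln. The genes most like Lox were Diablo, Olfr763, Abcb1b, Aff1 and Il17d (r = 0.981 to 0.992), with differences of 0.29 to 0.76, all smaller than that of Lox. With 6 samples high correlations are common, and 158 genes exceeded r = 0.9 with Eln and 137 with Lox.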

How the data were processed

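Per the file headers, Feature Extraction 10.7.3.1 gave the spot intensities, in intensity units, with background subtraction, detrending within each array and surrogates near background. The authors' deposited value table holds log2 values, whose column medians were 8.02 and whose correlation with each array's own log2 mean signal was 0.9995 to 0.9998, with background correction and software not given in the sources used. Outlier flags marked 124 to 229 spots per array, which were left out, and no member probe was saturated.

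Log2 processed signals minus each array's 75th percentile were tested with limma 3.58.1 in R 4.3.3 (each probe separately, Benjamini-Hochberg over 41261 probes, 2-sided), after a check on simulated data. A probe counted as well above background where at least 0.5 of its spots were. Members and lists were chosen with earlier results of these data known. From each list the text names genes that passed and up to 4 with the largest difference among those without overlap; the 5 genes most like Eln and Lox were named. Positions (mm9) were read from the array files. All arrays were on 1 slide. Figures used matplotlib 3.10.9.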

Additional observations from a re-analysis of the deposited data

How the results depend on the processing

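Eln was lower and both Lox probes were higher in geriatric cells under every alternative run for them (20 for Eln and the Lox probe at base 1531, 18 for the other Lox probe). Eln and Lox were chosen for these directions, so the kept signs are not support for them. The groups of Eln and of the Lox probe at base 1531 do not overlap, so leaving out an array could not change their signs. Some alternatives, such as another filter on dim probes, left these differences unchanged. Eln ran from -1.73 to -1.38 with 1 array or sample left out, and Lox at base 1531 from 1.74 to 2.47. The latter was 1.40 with normexp and 1.31 with the authors' values. The count of 6 probes past limma's threshold was 0 to 6 with 1 array left out and 0 without the averaged geriatric sample. It was 2 with the authors' values, 0 with no filter on dim probes, 0 with probes well above background on all arrays and 0 with the slide row as a block, where each probe's difference equals that within slide row 1. With geriatric replicates 1 and 2 as 2 samples it was 103. Where the count was 0, 2451 to 5414 probes had an unadjusted limma p under 0.05. With the replicate number as a block it was 0 as well, and Eln differed by -1.53 and Lox by 1.74. Same-numbered young and geriatric arrays correlated at -0.04, 0.06 and 0.0096 in their deviations from group means, against -0.099 to 0.071 for arrays of different numbers. Whether same-numbered samples share more than the number cannot be told from so few arrays. Of the 10 members 5 to 8 were higher with 1 array left out, 8 of them without geriatric replicate 3. With probes well above background on all arrays 8 members remained, of which 4 were higher, and 5 to 8 of 10 were higher under the other alternatives. No list gene passed under any of the 19 alternatives with a test. The Loxl3 probe, the dimmer Loxl4 probe and the Fbln5 probe were not well above background on all arrays, and their differences were smaller with normexp and with the authors' values, the cause of which was not tested.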
